A study of Mus musculus with 20 samples.

Results

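Immortalized mouse fibroblasts with the floxed and with the wild-type Ubf gene differed in many genes at 0 h, before the floxed gene recombined, and a set of these differences kept their sign through 96 h. The genes described here were chosen by that sign. For each gene the log2 level in Ubf wt/wt iMEFs was subtracted from that in Ubf fl/fl iMEFs at the same time, and the gene was taken when the difference had 1 sign at 0, 24, 48, 72 and 96 h. Of 14765 genes tested, 2889 (19.6%) met the rule, 1174 of them higher in fl/fl cells (7.95%) and 1715 lower (11.6%). A gene is called lasting below when limma's adjusted p was also under 0.05, and 583 genes were: 219 higher in fl/fl iMEFs (1.48% of the genes tested) and 364 lower (2.47%).

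The iMEFs are fibroblasts of E14.5 mouse embryos immortalized by transfection with the SV40 T/t antigens. The lines are Ubf fl/fl ER-Cre+/+, with both copies of Ubf floxed, and Ubf wt/wt ER-Cre+/+, described by the study as isogenic. Primary MEFs of the same genotypes, not immortalized, are the other lines of the series. ER-Cre is a recombinase that is active only in the presence of 4-hydroxytamoxifen (4-HT), and every line carries it. All 4 lines received 50 nM 4-HT for 4 h, so the wt/wt lines share the recombinase and the drug and lack the floxed sites. Each line has 1 array at each of the 5 times. Since the labels give 1 culture of each genotype, the genotype, the history of a line and the embryo it came from cannot be told apart. The p-values measure scatter between the times of a pair of cultures, not between independent lines, and an exact sign-flip test on 5 pairs could not go below 0.0625.

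Ubf, listed on the array as Ubtf, encodes the upstream binding factor that loads RNA polymerase I (RPI) on the ribosomal RNA genes. MEF cultures are mixtures of mesenchymal cells of the whole embryo, which keep part of the positional code of their place of origin, chiefly in the Hox genes and other patterning factors. Immortalized lines can grow out from part of the cells of such a mixture, and lines can differ in matrix genes, positional factors and imprinted genes. Whether this applies to the lines used here was not tested.

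Both lines had the marker genes of fibroblasts. Of 15 fibroblast markers, 12 were over the 40th percentile of the array (a log2 level of 6.19 to 6.42) on all 5 arrays of each line, and their summed log2 level was 14.96 to 15.57 in fl/fl and 15.03 to 15.45 in wt/wt iMEFs. Ptprc of blood cells and Cdh5 of endothelium were under the percentile on every iMEF array, and Epcam of epithelium was over it on 0 fl/fl arrays and 1 wt/wt array. Other markers of these lists were measured: 10 of 13 epithelial markers were over the percentile on all arrays of each line, as were 4 of 10 endothelial markers in fl/fl and 6 in wt/wt iMEFs, and 4 of 12 macrophage markers in fl/fl and 5 in wt/wt iMEFs. The part of such cells in the differences was not tested. In bulk RNA, fewer cells of a type and less RNA per cell cannot be told apart. The fl/fl array at 24 h stood apart from the others, with a correlation to them of 0.911 to 0.974, against 0.951 to 0.99 among the other 9. Without the 24 h arrays 214 genes were called higher, 191 of them among the 219, and 397 lower, 335 of them among the 364. The median difference over all genes was -0.029. Ubtf itself had a mean log2 level of 10.34 in fl/fl and 10.17 in wt/wt iMEFs, a difference of 0.18 ± 0.11 (SE) that has 1 sign but is not called (adjusted p = 0.39), and whether its probe set lies in the deleted exons is not given in the sources used here.

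The median difference of the genes that were higher was 0.70 on the log2 scale, and that of the genes that were lower was -0.72. The levels of the lines did not overlap at any time for 136 of the 219 and for 264 of the 364. Over all genes tested, 744 did not overlap (5.04%), and since the rule and the fit used these same values the counts are a description. A difference of at least 1 at every time was found for 9 genes that were higher and 41 that were lower. The percentile was passed on at least 2 arrays of both lines by 537 of the 583 genes. The others were over it on fewer than 2 wt/wt arrays (16) or fewer than 2 fl/fl arrays (30), so the size of their differences is uncertain. At 0 h the median size over the 583 genes was 0.73, and the mean of 24 to 96 h had a median size of 0.72. The difference was larger at 0 h than later for 281 genes, smaller for 295 and equal to 2 decimals for 7. It was under 1/2 of the later mean for 41 genes and over 2 times the later mean for 9. Since the rule asks for the sign at 0 h and the fit for low scatter between times, these sizes are a description of the genes chosen.

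Genes at the edge of the sign rule were separated by small values at a single time. Bmpr1a, a BMP receptor, was just inside, with differences of 1.06, 1.26, 0.01, 0.82 and 0.62 from 0 to 96 h. Mfap4, a microfibril protein, was just outside, with 1.32, 0.77, 1.31, 0.78 and -0.05. Of the genes with an adjusted p under 0.05, only Mfap4, Chst2 and Gstm1 had mixed signs.

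The highest lasting gene was Sbspon, a secreted protein with somatomedin B and thrombospondin domains. Its log2 levels from 0 to 96 h were 10.88, 10.68, 11.04, 10.92 and 9.92 in fl/fl iMEFs and 8.32, 8.06, 8.09, 8 and 8.08 in wt/wt iMEFs. The lines did not overlap, and the difference was 2.58 ± 0.16 (SE, 5 pairs; 5.96-fold; adjusted p = 6.76e-05). Mest, an imprinted gene of the hydrolase family expressed from the paternal copy, had levels of 9.55, 9.57, 9.52, 8.75 and 7.98 in fl/fl iMEFs and 7.18, 7.18, 7.67, 7.22 and 6.63 in wt/wt iMEFs. It fell late in both lines, yet its lowest fl/fl value stayed over its highest wt/wt value, and the difference was 1.9 ± 0.17 (3.72-fold; adjusted p = 0.000406). Sfrp2, a secreted WNT antagonist, was 11.33, 10.87, 10.91, 10.99 and 10.64 in fl/fl iMEFs and 9.67, 9.75, 9.90, 9.01 and 8.09 in wt/wt iMEFs. Here the late decline was in wt/wt cells, and the difference was widest at 96 h (2.54) and 1.66 ± 0.21 on average (adjusted p = 0.00279).

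Further genes of the 15 highest were of varied function. Mfap5, a glycoprotein of elastic microfibrils, ran at 10.98 to 11.31 in fl/fl and 9.40 to 10.02 in wt/wt iMEFs (difference 1.5 ± 0.10, 2.82-fold, adjusted p = 9.22e-05). Hs3st1, which adds 3-O sulfate to heparan sulfate, differed by 1.49 ± 0.11 and the GPI-anchored surface protein Psca by 1.74 ± 0.19. The transcription factor genes Tbx20, a T-box factor of the heart, and Mkx, a homeobox factor of tendon, were higher by 1.24 ± 0.11 and 1.04 ± 0.09. Aspn, the leucine-rich proteoglycan asporin, had the least even difference of the 15, from 1.19 at 0 h to 3.46 at 24 h, with wt/wt levels of 4.19 to 5.20 that were all under the percentile, so that no fold is given. Its mean of 2.02 ± 0.29 was no longer called without the 96 h arrays (adjusted p = 0.0605). Sox2, the stem cell factor, and Rpl39l, a copy of a ribosomal protein gene, likewise had all 5 wt/wt values under the percentile, with differences of 1.16 ± 0.11 and 1.39 ± 0.10.

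**Figure D1:**
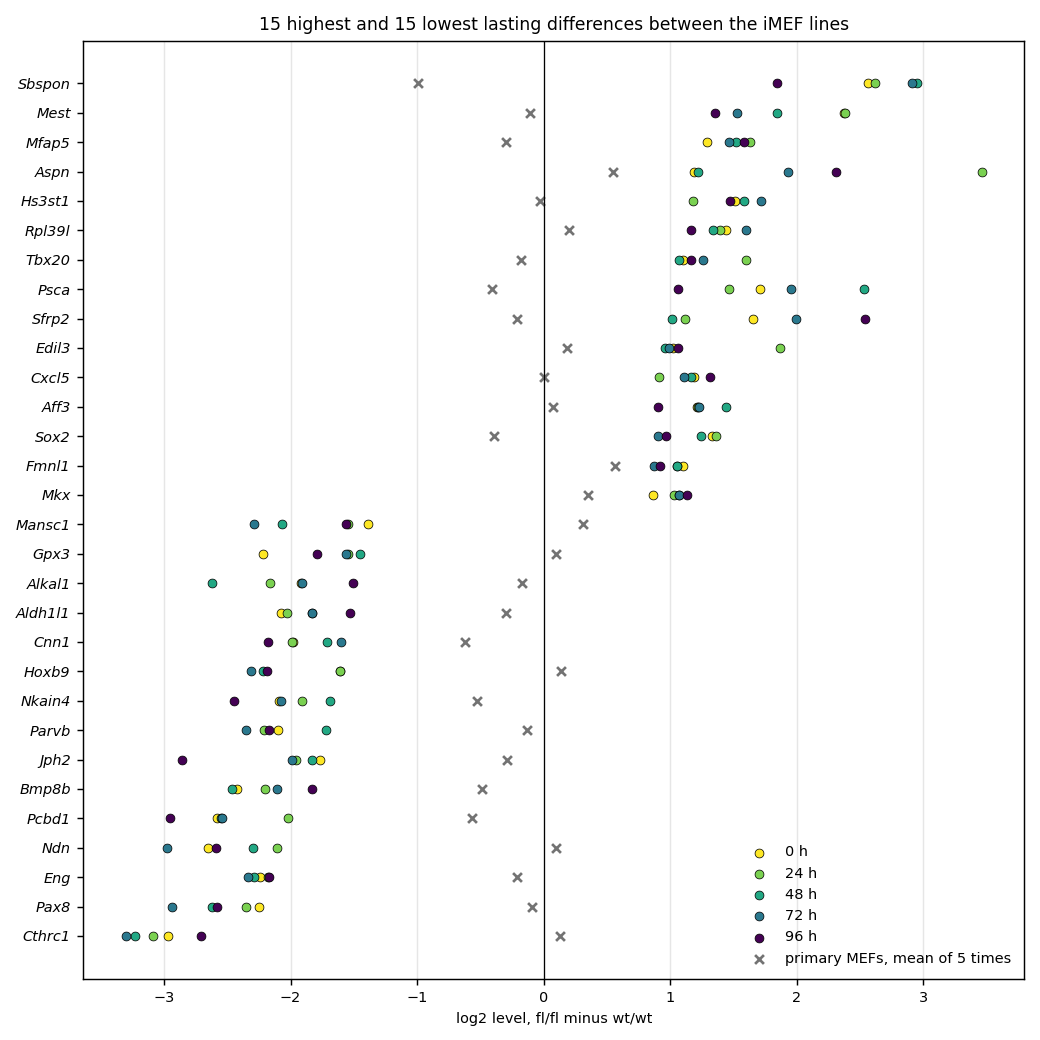
Log2 level in fl/fl minus wt/wt cells (horizontal axis) for the 15 highest and the 15 lowest lasting genes of the iMEF lines, ranked by their smallest difference. Coloured points are the 5 times in iMEFs and crosses the mean over 5 times in primary MEFs; the points of each gene lie on 1 side of 0, while the crosses lie between -0.99 (Sbspon) and 0.56 (Fmnl1).

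The lowest lasting gene with a protein product was Cthrc1, a secreted protein with collagen repeats that is made by activated fibroblasts. Its levels were 7.59, 7.33, 7.62, 7.23 and 7.54 in fl/fl iMEFs and 10.56, 10.43, 10.86, 10.53 and 10.25 in wt/wt iMEFs. The lines did not overlap, and the difference was -3.06 ± 0.11 (8.34-fold lower in fl/fl, adjusted p = 8.13e-06). Pax8, a transcription factor of thyroid and kidney, was 7, 6.91, 6.97, 7.02 and 7.49 in fl/fl iMEFs and 9.25, 9.26, 9.59, 9.96 and 10.07 in wt/wt iMEFs. Its wt/wt level was higher at the later times, and the difference was -2.55 ± 0.12 (5.85-fold lower, adjusted p = 2.38e-05). Eng, the TGF-beta co-receptor endoglin, was 7.24 to 7.46 in fl/fl and 9.41 to 9.80 in wt/wt iMEFs, and its difference was the steadiest of the large ones, between -2.17 and -2.34 at all times (mean -2.24 ± 0.09, adjusted p = 1.05e-05). Ndn, or necdin, an imprinted growth suppressor, was 7.55, 7.85, 7.87, 7.05 and 6.65 in fl/fl iMEFs and 10.20, 9.96, 10.17, 10.04 and 9.24 in wt/wt iMEFs (difference -2.53 ± 0.13, adjusted p = 3.3e-05).

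Several of the 15 lowest genes had fl/fl levels close to 7 and wt/wt levels of 9 or more, among them Pcbd1, Bmp8b, Jph2, Parvb and Nkain4. Pcbd1, an enzyme that recycles tetrahydrobiopterin, was 6.95 to 7.80 in fl/fl and 9.78 to 10.06 in wt/wt iMEFs (difference -2.53 ± 0.13). Bmp8b, a BMP ligand, differed by -2.21 ± 0.12, and Parvb, which links integrins to actin, by -2.11 ± 0.11. Jph2, or junctophilin, and Nkain4, a membrane protein that binds the sodium pump, differed by -2.08 ± 0.16 and -2.04 ± 0.12. For Jph2 the 2 probe sets gave -2.08 and -2.10. The enzymes Aldh1l1 of folate metabolism and Gpx3, a secreted glutathione peroxidase, were lower by 1.86 ± 0.11 and 1.71 ± 0.13 on the log2 scale. Alkal1, a ligand of the ALK receptor, was lower by 2.02 ± 0.15. Mansc1, a membrane protein, was under the percentile on all 5 fl/fl arrays, with a difference of -1.77 ± 0.15.

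**Figure D2:**
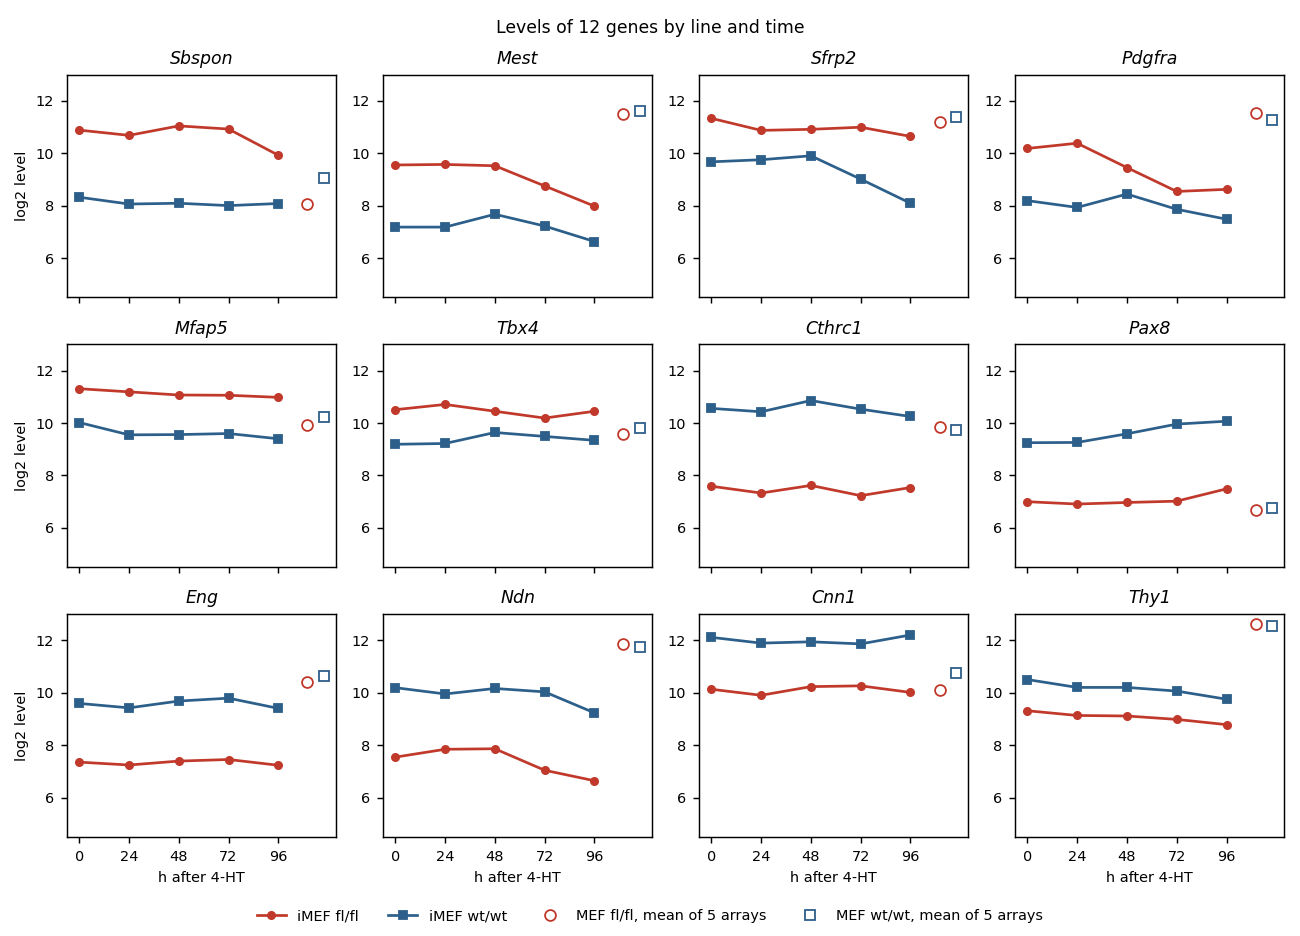
Log2 level (vertical axis) by h after 4-HT (horizontal axis) of 12 genes in fl/fl (red) and wt/wt (blue) iMEFs, 1 array per point, with the mean of 5 primary MEF arrays of each genotype as open symbols. The iMEF lines stay apart at every time in each panel, by 2.56 for Sbspon and 2.97 for Cthrc1 already at 0 h.

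Of 46 matrix glycoproteins and proteoglycans tested, 10 were lasting and higher in fl/fl iMEFs and 3 were lower (28.3%, against 3.95% of all genes), with a median difference of 0.06. Besides Mfap5 and Aspn, the higher ones included Fbln1, a fibulin of basement membranes and elastic fibres (11.81 in fl/fl and 11.03 in wt/wt iMEFs on average, difference 0.78 ± 0.10, adjusted p = 0.00299), and Smoc2 (0.74 ± 0.11, adjusted p = 0.00712). Igfbp7, an abundant secreted protein that binds insulin-like growth factors, was the lowest of the 3, at 11.01 to 11.41 in fl/fl and 12.36 to 12.60 in wt/wt iMEFs (difference -1.23 ± 0.11, adjusted p = 0.000444). The fibulins Fbln2 and Efemp1 differed by -0.58 ± 0.13 and -1.04 ± 0.23 and lost the call without the 0, 48, 72 or 96 h arrays (adjusted p up to 0.17 and 0.183). Both differences were smaller at 0 and 24 h than later. From 0 to 96 h they were -0.36, -0.13, -0.79, -0.89 and -0.74 for Fbln2. For Efemp1 they were -0.43, -0.18, -1.10, -1.67 and -1.80. None of 26 collagen chains was lasting. Of these chains 4 had 1 sign as higher and 6 as lower, against 7.95% and 11.6% of all genes, with a median of -0.09. Among 24 proteases and inhibitors of the matrix, Htra1 was higher (0.63 ± 0.11) and Mmp23 and Mmp2 lower (-1.30 ± 0.17 and -0.68 ± 0.11), 12.5% of the list. Htra1 and Mmp2 lost the call when 1 time was left out (adjusted p up to 0.0912 and 0.0564).

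The genes of the fibroblast list itself were not all alike. Pdgfra, the PDGF receptor of mesenchymal precursors, was 10.18, 10.38, 9.45, 8.54 and 8.62 in fl/fl iMEFs and 8.19, 7.93, 8.44, 7.86 and 7.48 in wt/wt iMEFs. The lines did not overlap and drew closer with time, with a mean difference of 1.46 ± 0.24 (adjusted p = 0.0102, or 0.0617 without the 96 h arrays). Thy1, a GPI-anchored surface protein used to sort fibroblasts, went the other way, with 8.79 to 9.32 in fl/fl and 9.76 to 10.51 in wt/wt iMEFs (difference -1.08 ± 0.09, adjusted p = 0.000354). Of the 13 fibroblast markers tested, 1 was lasting and higher and 2 lower (23.1%, against 3.95% of all genes), and the median difference was 0.08.

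Hox genes are arranged in 4 clusters, and the paralogue number runs from genes of the anterior to genes of the posterior body. Of 14 anterior Hox genes (groups 1 to 5), 0 were lasting and higher and 2 lower (14.3%), with a median of -0.32. Among 7 central ones (groups 6 to 8) 1 was higher and 3 lower (57.1%), with a median of -0.44. Of 17 posterior genes (groups 9 to 13, with the noncoding RNA Hottip), 3 were higher and 3 lower (35.3%), with a median of 0.26. The share of lasting genes over all genes was 3.95%. All 9 Hoxb genes measured had a mean difference below 0, and 3 were lasting (33.3%). In the Hoxc cluster the direction changed along the cluster: Hoxc6, Hoxc8, Hoxc9 and Hoxc10 were lower by 1.53, 0.72, 1.30 and 1.57, Hoxc11 differed by -0.01, and Hoxc12 and Hoxc13 were higher by 0.72 and 0.63.

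Hoxb9 was the Hox gene with the largest difference. Its levels were 8.66, 8.39, 8.04, 8.13 and 7.77 in fl/fl iMEFs and 10.27, 10.00, 10.25, 10.44 and 9.96 in wt/wt iMEFs (difference -1.99 ± 0.14, 3.97-fold lower, adjusted p = 0.000124). Hoxc10, a gene of the hindlimb and lumbar region, was 6.84 to 7.43 in fl/fl and 8.58 to 9.13 in wt/wt iMEFs (difference -1.57 ± 0.10, adjusted p = 9.39e-05). The calls of Hoxb9, Hoxc6, Hoxc9, Hoxc10, Hoxc12 and Hoxb5 (-0.67 ± 0.10) held whichever time was left out. Those of Hoxb6, Hoxc8, Hoxa2, Hoxc13, Hoxa13 and Hoxd8 did not (adjusted p up to 0.0866, 0.0807, 0.0502, 0.112, 0.185 and 0.166). In primary MEFs Hoxb9, Hoxc6, Hoxc9 and Hoxc10 differed by 0.14, 0.08, 0.24 and 0.13, in that order, and none was called.

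**Figure D3:**
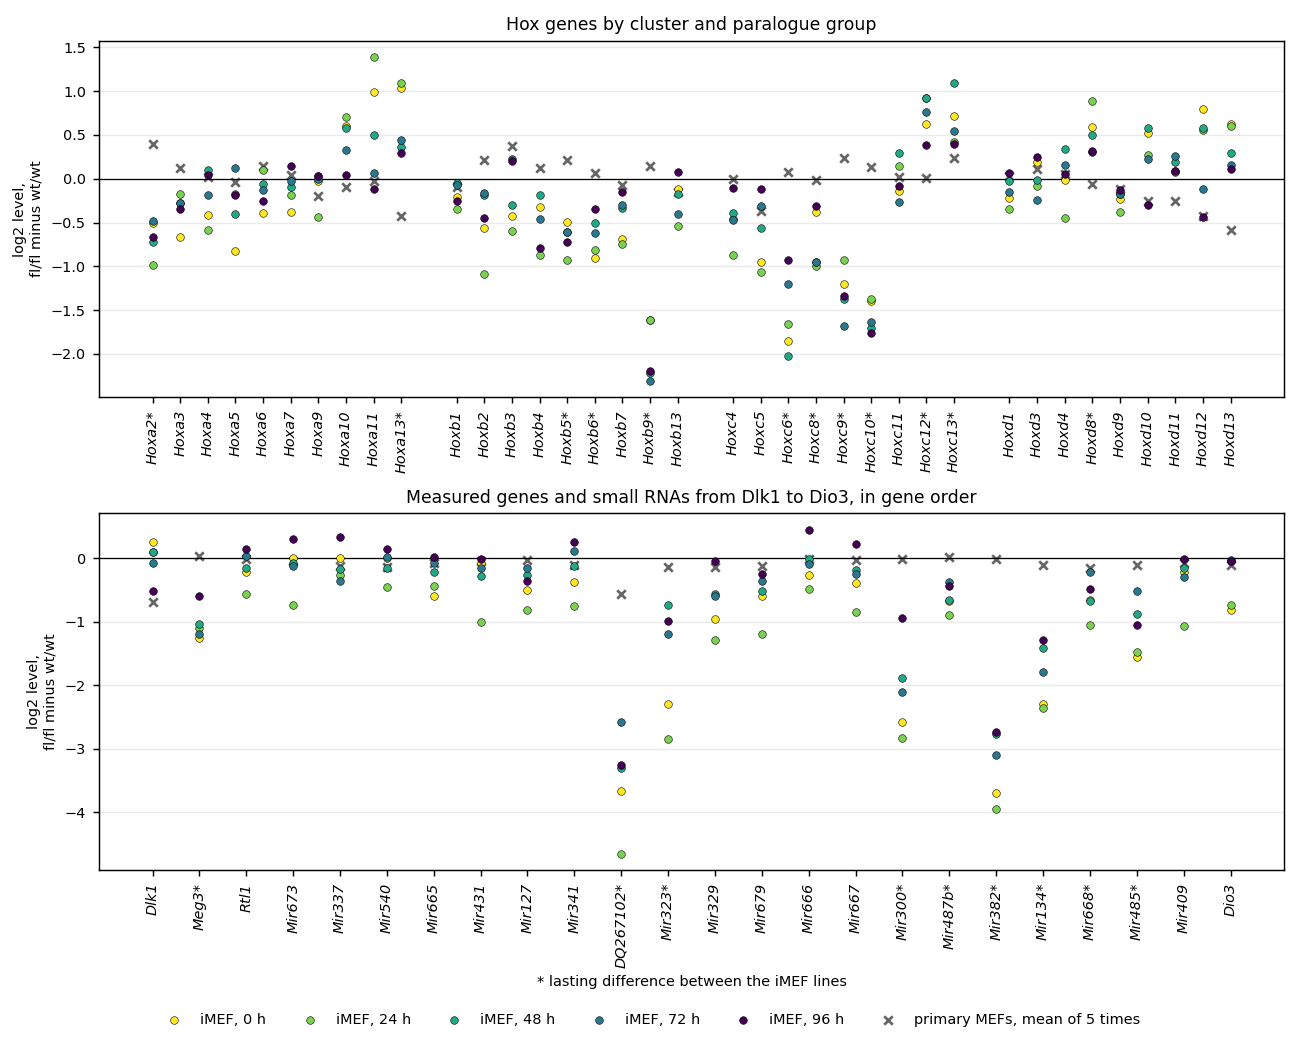
Log2 level in fl/fl minus wt/wt cells (vertical axis) for each Hox gene by cluster and paralogue group (upper panel) and for the genes measured from Dlk1 to Dio3 in gene order (lower panel). Points are the 5 times in iMEFs and crosses the mean in primary MEFs; asterisks mark lasting iMEF differences, which reach -1.99 for Hoxb9 and -3.49 for DQ267102.

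Other patterning and mesenchymal factors included both directions. Of 44 factors of limb, trunk and head tested, 3 were lasting and higher and 7 lower (22.7%). Of 25 mesenchymal transcription factors 5 were higher and 2 lower (28%), and the share over all genes was 3.95%. With 1 sign at all times there were 4 higher and 12 lower in the first list and 6 and 3 in the second. Over all genes the shares with 1 sign were 7.95% and 11.6%. The medians of the lists were -0.10 and 0.01, in that order. Tbx4, which specifies the hindlimb and is active in lung mesenchyme, was 10.51, 10.71, 10.45, 10.19 and 10.45 in fl/fl iMEFs and 9.19, 9.22, 9.64, 9.49 and 9.34 in wt/wt iMEFs, with no overlap and a difference of 1.09 ± 0.13 (adjusted p = 0.00253). Nkx3-2, a factor of axial skeleton and gut mesenchyme, was higher by 1.04 ± 0.14 (adjusted p = 0.00473) and Ebf3 by 0.62 ± 0.09 (adjusted p = 0.00626). On the other side, Zic1, Gata6, Dlx2 and Foxc2 were lower by 0.74 ± 0.10, 0.70 ± 0.09, 0.83 ± 0.10 and 0.76 ± 0.10. The paralogues Msx1 and Msx2, homeobox targets of BMP signalling, differed in opposite directions, Msx1 by 0.71 ± 0.12 and Msx2 by -0.73 ± 0.12, and Msx1 lost the call without the 0 or 72 h arrays (adjusted p up to 0.0718). Ebf1, a relative of Ebf3, was lower by 0.99 ± 0.13, so that these paralogues too differed in opposite directions.

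Signalling genes were called in both directions. Of 39 WNT ligands, receptors and inhibitors tested, 3 were lasting (7.69%, against 3.95% of all genes). These were the inhibitors Sfrp2, Sfrp1 and Dkk2, all higher in fl/fl iMEFs. Over the list 4 genes had 1 sign as higher and 9 as lower, with a median of -0.07. The shares with 1 sign over all genes were 7.95% and 11.6%. Sfrp1 differed by 1.13 ± 0.25 with overlapping lines, at 7.88 to 9.19 in fl/fl and 6.88 to 8.30 in wt/wt iMEFs, and Dkk2 by 0.47 ± 0.10. Both lost the call when 1 time was left out (adjusted p up to 0.149 and 0.184). Of 35 genes of TGF-beta and BMP signalling, 4 were lasting and higher and 3 lower (20%, against 3.95% of all genes). The median of this list was -0.10. The ligands Bmp6, Bmp3 and Bmp2 and the receptor Bmpr1a were higher, and the inhibitors Fst and Fstl3, which bind activin, and the receptor Bmpr1b lower. Outside this list, the BMP ligand Bmp8b and the TGF-beta co-receptor Eng were lower, with differences of -2.21 ± 0.12 and -2.24 ± 0.09. Fst was 7.45 to 7.72 in fl/fl and 8.42 to 9.07 in wt/wt iMEFs (difference -1.23 ± 0.13, adjusted p = 0.0014), and Fstl3 differed by -0.85 ± 0.10 (adjusted p = 0.00217). Bmp6 was higher by 0.68 ± 0.10 (adjusted p = 0.00842), and its call, like those of Fst and Fstl3, held whichever time was left out. Bmp3, Bmp2, Bmpr1a and Bmpr1b lost theirs (adjusted p up to 0.135, 0.148, 0.164 and 0.0866). Bmp2 was over the percentile on only 1 wt/wt array and Bmpr1b on only 1 fl/fl array.

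Of 40 semaphorins, ephrins and related genes, 3 were lasting and higher and 3 lower (15%, against 3.95% of all genes), with a median of -0.03. Slit3 was higher by 0.88 ± 0.13 (adjusted p = 0.00689), and Slit2 by 1.18 ± 0.19 (adjusted p = 0.0107, or 0.0816 without the 96 h arrays). Both encode ligands of the Robo receptors. Nrp2 was higher by 0.74 ± 0.17. Sema6a, Efnb2 and Unc5b differed by -0.81 ± 0.13, -0.68 ± 0.11 and -0.58 ± 0.10. Nrp2, Sema6a, Efnb2 and Unc5b lost the call when 1 time was left out (adjusted p up to 0.172, 0.0668, 0.0601 and 0.0846). Of 31 genes of FGF, PDGF and other growth factor signalling, 3 were lasting and higher and 2 lower (16.1%). Nrg1, a ligand of ERBB receptors, was lower by 0.93 ± 0.10 (adjusted p = 0.00154). Kitl, the ligand of the KIT receptor, was higher by 0.90 ± 0.17 with all 5 wt/wt values under the percentile, and lost the call without the 0 or 96 h arrays (adjusted p up to 0.0812). The chemokine genes Cxcl5 and Cxcl14 were higher by 1.14 ± 0.10 and 0.79 ± 0.11 (adjusted p = 0.000401 and 0.00612), whereas Cxcl12 was lower by 0.65 ± 0.11 and lost the call without the 0 or 72 h arrays (adjusted p up to 0.0704).

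Contractile and adhesion genes were called in small numbers. Of 16 contractile genes, 0 were lasting and higher and 3 lower (18.8%), while the median was -0.05. Cnn1, the smooth muscle calponin, was 10.14, 9.91, 10.24, 10.27 and 10.02 in fl/fl iMEFs and 12.12, 11.90, 11.95, 11.87 and 12.21 in wt/wt iMEFs (difference -1.89 ± 0.11, 3.71-fold lower, adjusted p = 5.41e-05). Actg2, the enteric smooth muscle actin, was 8.13 to 9.01 in fl/fl and 9.37 to 10.29 in wt/wt iMEFs, and its difference shrank to -0.36 at 96 h (mean -1.21 ± 0.21, adjusted p = 0.0145, or 0.0632 without the 0 h arrays). The summed level of the 11 smooth muscle and pericyte markers was 13.94 to 14.18 in fl/fl and 14.40 to 14.54 in wt/wt iMEFs, with 10 of 11 over the percentile on all arrays of both lines. The part of cell makeup in these differences was not tested. Of 20 integrin genes, 1 was lasting and higher, Itgbl1 (0.55 ± 0.09, adjusted p up to 0.0866 without the 0 or 72 h arrays), and 0 lower (5%, against 3.95% of all genes), with a median of -0.10. Of 18 cadherins and protocadherins, 1 was lasting and higher and 4 lower (27.8%), with a median of -0.11. Cdh3, or P-cadherin, was 8.55 to 10.07 in fl/fl and 10.44 to 11.02 in wt/wt iMEFs (difference -1.34 ± 0.15, adjusted p = 0.00167). Pcdh7 differed by -1.09 ± 0.13 and was over the percentile on only 2 fl/fl arrays, so the size of its difference is uncertain. Krt19, a keratin of simple epithelia, was lower by 1.01 ± 0.15 (adjusted p = 0.00666), and the summed level of 13 epithelial markers was 11.09 to 11.34 in fl/fl and 11.44 to 11.79 in wt/wt iMEFs.

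Some interferon and antigen presentation genes were lower in fl/fl iMEFs. Of 40 interferon-stimulated genes tested, 0 were lasting and higher and 4 lower (10%, against 3.95% of all genes). In this list 1 and 9 had 1 sign as higher and as lower, against 7.95% and 11.6% of all genes, and the median was -0.25. Of 14 genes of MHC class I presentation 0 were lasting and higher and 3 lower (21.4%), with 0 and 6 having 1 sign as higher and as lower and a median of -0.40. Bst2, or tetherin, which holds budding virus at the cell surface, was 9.76, 10.14, 11.87, 12.12 and 11.18 in fl/fl iMEFs and 11.56, 11.67, 12.48, 12.38 and 12.13 in wt/wt iMEFs. The lines overlapped, both were higher from 48 h on, and the difference was -1.81 at 0 h and -0.26 at 72 h (mean -1.03 ± 0.21, adjusted p = 0.0291). The other interferon-stimulated genes called were Trim30a, Mx2 and Rsad2 (-0.97 ± 0.21, -0.57 ± 0.10 and -0.92 ± 0.20), and the MHC class I genes were H2-Q4, H2-M3 and H2-T10 (-0.63 ± 0.12, -0.58 ± 0.12 and -0.68 ± 0.15). All 7 genes had overlapping lines and lost the call when 1 time was left out (adjusted p up to 0.171, the highest of the 7, for Rsad2).

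Imprinted genes, of which 1 parental copy is silent, gave some of the largest differences. Of 29 tested, 1 was lasting and higher, Mest, and 2 were lower, Ndn and Meg3 (10.3%, against 3.95% of all genes). In this list 1 and 7 had 1 sign as higher and as lower, against 7.95% and 11.6% of all genes. The median was -0.08. Meg3 is a noncoding RNA of the maternal copy of the Dlk1-Dio3 region on chromosome 12, where it is followed by clusters of microRNAs and C/D box small nucleolar RNAs (snoRNAs) on the same strand. Its levels were 7.24, 7.29, 7.64, 7.49 and 8.40 in fl/fl iMEFs and 8.50, 8.39, 8.69, 8.68 and 8.99 in wt/wt iMEFs (difference -1.04 ± 0.12, adjusted p = 0.00173), overlapping only through the fl/fl value at 96 h. Dlk1 and Rtl1, which are expressed from the paternal copy, differed by -0.03 ± 0.13 and -0.15 ± 0.12 in iMEFs and were not called. In primary MEFs Dlk1 was lower in fl/fl cells, at 10.76 in fl/fl and 11.45 in wt/wt cells on average (difference -0.69 ± 0.07, adjusted p = 0.00786), while Meg3 differed by 0.04 ± 0.13.

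Small RNAs of this region were among the lasting genes that were lower. Between Dlk1 and Dio3, 19 microRNA precursors were tested. Of these, 12 had 1 sign as lower and 7 were lasting (36.8%, against 3.95% of all genes). Among 101 precursors elsewhere in the genome 1 was lasting (0.99%), Mir15b (0.77 ± 0.15, with 0.05 at 96 h). Others of the 19, such as Mir673, Mir337 and Mir666, differed by -0.12, -0.09 and -0.08 with mixed signs. The mature sequences of the 7 lasting ones of the region are printed because these precursors share a direction but no seed. Their likeness outside the seeds was not tested. The 7 were picked by their call, and their differences ran from -0.61 (Mir487b) to -3.25 (Mir382). Whether they vary together was not tested. They lie within chr12:109712508-109734974 of RefSeq's GRCm38.p6, on the plus strand, and RefSeq's table holds 12 mature sequences for them. They are written 5′ to 3′ with the seed, bases 2 to 8, in capitals.
mmu-miR-323-5p: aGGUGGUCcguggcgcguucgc
mmu-miR-323-3p: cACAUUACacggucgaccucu
mmu-miR-300-5p: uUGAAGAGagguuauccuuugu
mmu-miR-300-3p: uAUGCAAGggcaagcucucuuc
mmu-miR-487b-5p: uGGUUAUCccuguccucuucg
mmu-miR-382-5p: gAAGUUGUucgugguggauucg
mmu-miR-382-3p: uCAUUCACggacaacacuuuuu
mmu-miR-134-5p: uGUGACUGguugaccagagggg
mmu-miR-134-3p: cUGUGGGCcaccuagucacc
mmu-miR-668-5p: gUAAGUGUgccucgggugagcaug
mmu-miR-668-3p: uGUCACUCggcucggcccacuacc
mmu-miR-485-3p: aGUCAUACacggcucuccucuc
The 12 sequences have 12 different seeds, so no pair of them forms a seed family. The probe sets cover the precursor and cannot tell its arms apart, nor a mature microRNA from the longer transcript it is cut from.

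Among the iMEFs, Mir382 was over the percentile in wt/wt cells only. Its levels were 5.12, 4.29, 5.06, 4.43 and 4.73 in fl/fl iMEFs, all under the percentile, and 8.81, 8.23, 7.83, 7.52 and 7.47 in wt/wt iMEFs. It passed the filter through the wt/wt arrays, so that the fitted difference of -3.25 ± 0.19 (adjusted p = 4.81e-05) gives a direction and no fold. The wt/wt level was lower at later times. Mir134 was 7.84, 7.5, 7.72, 7.64 and 8.05 in fl/fl iMEFs and 10.14, 9.85, 9.15, 9.42 and 9.33 in wt/wt iMEFs (difference -1.83 ± 0.17, adjusted p = 0.000548). Mir300, Mir485 and Mir668 were lower by 2.07 ± 0.23, 1.09 ± 0.16 and 0.62 ± 0.13, and Mir323 and Mir487b by 1.61 ± 0.29 and 0.61 ± 0.11. The calls of Mir323 and Mir487b were lost without the 0 or 96 h arrays, and that of Mir487b also without those of 48 h (adjusted p up to 0.0642 and 0.0894). All 5 fl/fl values of Mir300 and Mir323 were under the percentile, and Mir487b was over it on only 2 fl/fl arrays. Mir300 was over it on only 2 wt/wt arrays, and its wt/wt levels at 48, 72 and 96 h were 5.71, 5.96 and 5.12. These are also under the percentile, so the size of the Mir300 difference is uncertain. The call of Mir668 was not run with times left out. DQ267102, a snoRNA in the same region, had the lowest difference of all 583 genes. Its levels were 8.62, 7.60, 8.63, 9.08 and 9.06 in fl/fl iMEFs and 12.29, 12.25, 11.93, 11.66 and 12.30 in wt/wt iMEFs (difference -3.49 ± 0.24, 11.2-fold lower, adjusted p = 0.000126). In primary MEFs the mean levels were 7.84 in fl/fl and 7.85 in wt/wt cells for Mir382, and 11.10 and 11.67, in the same order, for DQ267102. For both RNAs the wt/wt iMEFs were nearer to the primary lines and the fl/fl iMEFs were below them.

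Of 47 genes of DNA replication and cell division, 11 had 1 sign as higher and 1 as lower, against 7.95% and 11.6% of all genes, and 2 were lasting (4.26%, against 3.95% of all genes). Pole was lasting and higher (0.89 ± 0.18) and Ccne1, cyclin E1, lower (-0.63 ± 0.10). The median was 0.25. None of 20 genes of the RPI machinery, 54 cytoplasmic ribosomal protein genes and 53 snoRNAs outside the Dlk1-Dio3 region was lasting, with medians of 0.07, 0.04 and 0.11, and no snoRNA of these 53 had 1 sign at all times. Pole and Ccne1 lost the call when 1 time was left out (adjusted p up to 0.15 and 0.0507).

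**Figure D4:**
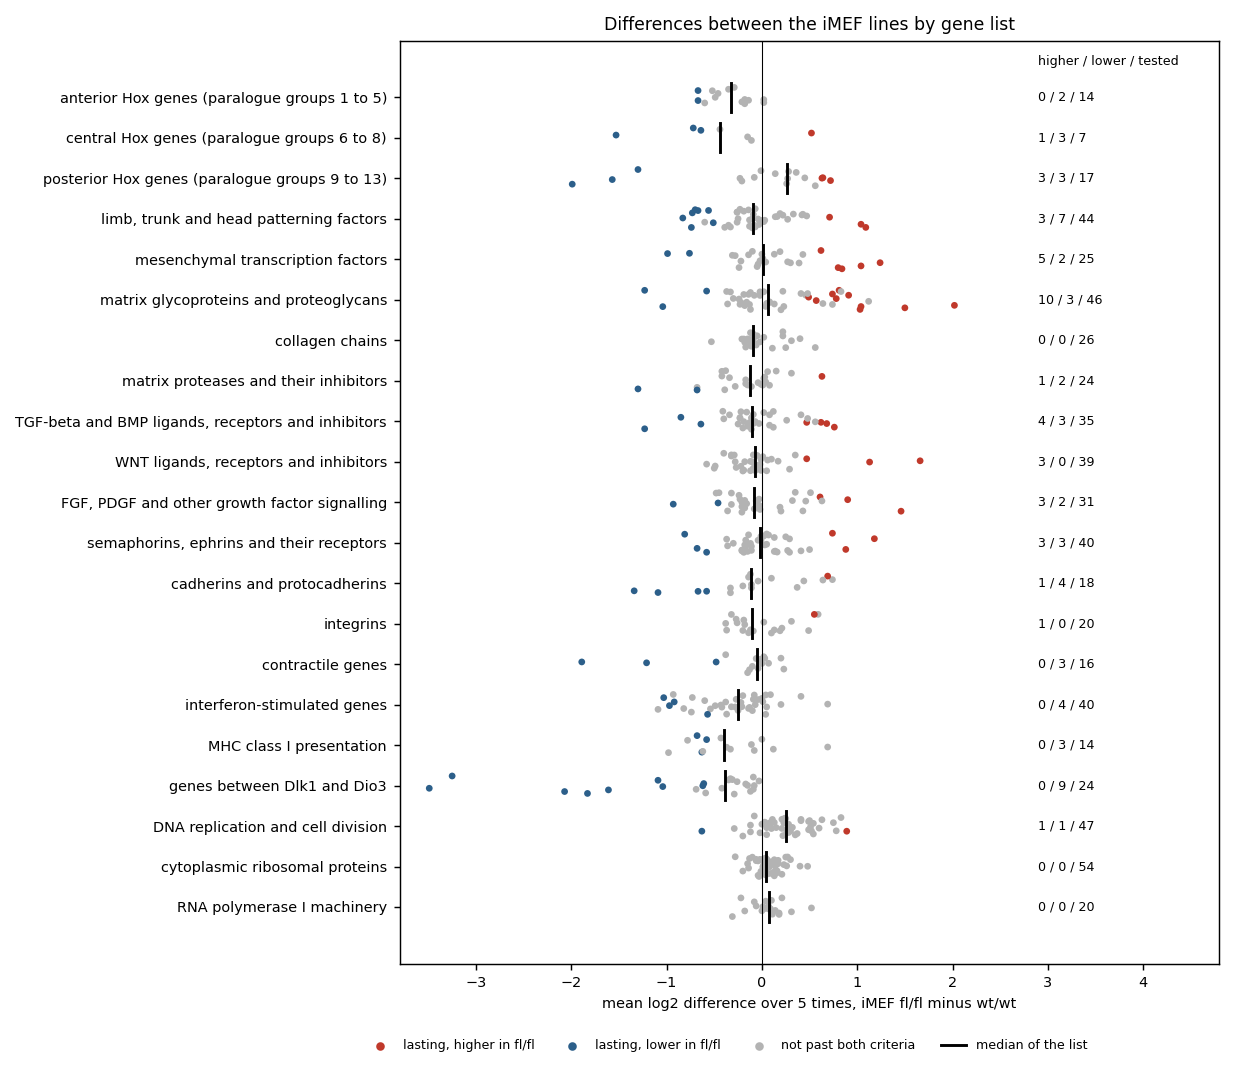
Mean log2 difference between fl/fl and wt/wt iMEFs over 5 times (horizontal axis) for the genes of 21 lists, with lasting genes in red (higher) and blue (lower), other genes in grey and the median of each list as a bar. The numbers at the right count lasting genes that were higher, lasting genes that were lower and genes tested, from 10, 3 and 46 for matrix glycoproteins to 0, 0 and 54 for ribosomal proteins.

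Primary MEFs carry the same genotypes in cultures that the rule did not use. There 14616 genes were tested, and 120 were higher in fl/fl cells (0.821%) and 117 lower (0.8%) by the same criteria. Of the 213 genes higher in fl/fl iMEFs that were kept in primary MEFs, 5 were called higher there (2.35%) and 11 lower (5.16%). Of the 357 genes lower in fl/fl iMEFs, 6 were called higher there (1.68%) and 21 lower (5.88%). All 5 primary differences had the iMEF sign for 22 of the higher and 73 of the lower genes. They had the opposite sign for 31 and 31, and 1715 of the 14616 genes had 1 sign there in either direction. The mean difference had the iMEF sign in primary MEFs for 52.6% of the higher genes and 54.3% of the lower genes, against 57.9% of all 14124 genes kept in both. Across the 570 lasting genes the correlation of the mean differences was 0.05 (Pearson's r, a description across genes, which are not independent replicates). The large iMEF differences were thus mostly not seen between the primary lines: that of Cthrc1 was 0.13, of Pax8 -0.09, of Eng -0.21, of Ndn 0.10 and of Mest -0.11.

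Some genes differed in the same direction in both kinds of cells, and they are named here after their values were seen. Mgp, matrix Gla protein, an inhibitor of calcification, was lower in fl/fl cells by 1.31 ± 0.12 in iMEFs and by 1.41 ± 0.13 in primary MEFs (adjusted p = 0.000555 and 0.00603). Rarres1, a membrane protein induced by retinoids, was lower by 1.48 ± 0.13 and 1.15 ± 0.08, and Thbd, the anticoagulant receptor thrombomodulin, by 1.41 ± 0.10 and 0.82 ± 0.07. Pcbd1, Nkain4, Foxc2, Dlx2, Bst2 and the cell cycle inhibitor Cdkn2b were also called lower in both. The 5 genes called higher in both were Ak4, Anxa9, Calml4, Glipr1 and Mab21l1. Of the 26 genes called in the same direction in both, 12, 11, 12, 1 and 26 were still called in primary MEFs without the 0, 24, 48, 72 and 96 h arrays, in that order.

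Another 17 genes were called in opposite directions, of which 1 was still called in primary MEFs without the 72 h arrays, and some are named after their values were seen. Sbspon, the highest gene in fl/fl iMEFs, was lower in fl/fl primary MEFs at every time, with 8.05 in fl/fl and 9.04 in wt/wt cells on average (difference -0.99 ± 0.11, adjusted p = 0.00857). Serinc2, a membrane protein, was lower by 0.93 ± 0.11 in fl/fl iMEFs and differed by 2.31 ± 0.09 in primary MEFs (adjusted p = 0.000113). Trim30d, under the percentile on all fl/fl iMEF arrays, differed by -1.46 ± 0.18 in iMEFs and by 1.45 ± 0.25 in primary MEFs, H2-Q4 by -0.63 ± 0.12 and 1.13 ± 0.20, and Msx1 by 0.71 ± 0.12 and -0.85 ± 0.08. Of 40 interferon-stimulated genes 0 were called higher and 1 lower (Bst2) in fl/fl primary MEFs, with a median of 0.32, and of 13 MHC class I genes 1 was called higher (H2-Q4) and 0 lower, with a median of 0.10. The blood cell markers Csf1r and Ptprc were also at higher levels in fl/fl primary MEFs, at 9.51 to 9.96 and 6.80 to 7.85 in fl/fl and 8.12 to 9.39 and 5.97 to 6.57 in wt/wt cells, and their part in the values of Trim30d and H2-Q4 was not tested. The median difference of the 7 macrophage markers tested was 0.79 in primary MEFs, with 0 called. In addition, the Y-linked gene Eif2s3y was 5.89 to 7.46 in fl/fl and 3.70 to 4.04 in wt/wt primary MEFs, whereas it was 4.34 to 4.97 in fl/fl and 4.20 to 4.43 in wt/wt iMEFs, under the percentile on all iMEF arrays.

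**Figure D5:**
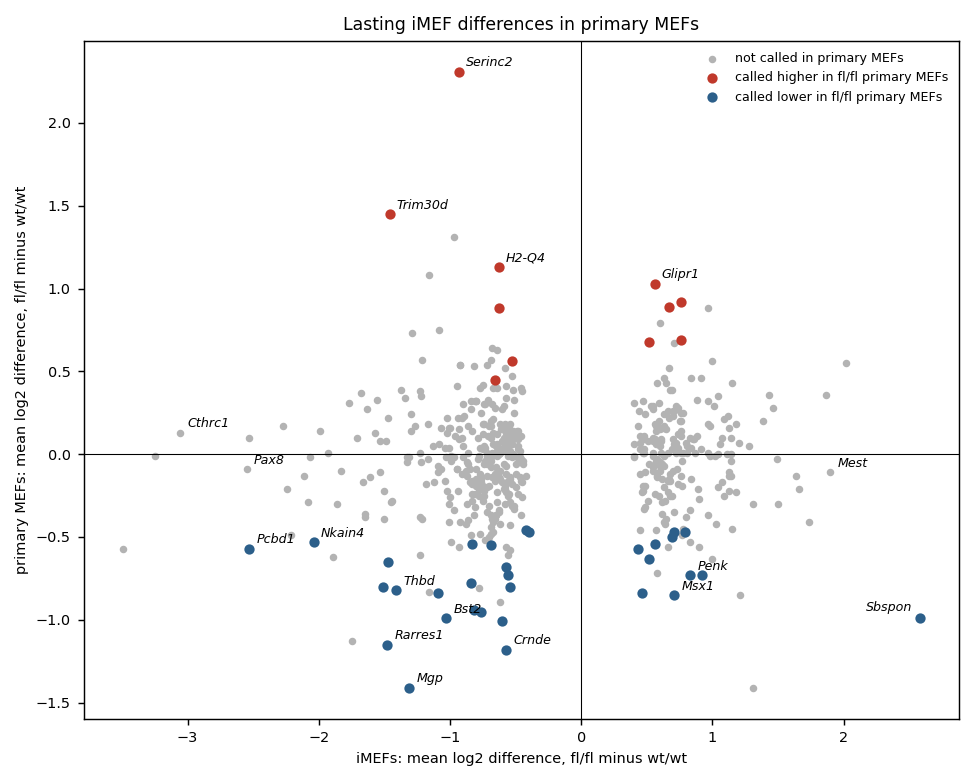
Mean log2 difference between fl/fl and wt/wt cells in iMEFs (horizontal axis) and primary MEFs (vertical axis) for the 570 lasting iMEF genes that were kept in both. Red and blue points were called higher and lower in fl/fl primary MEFs; Sbspon (2.58 and -0.99) and Serinc2 (-0.93 and 2.31) lie in opposite quadrants, while Mgp (-1.31 and -1.41) lies below 0 on both axes.

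The level in primary MEFs, averaged over their 10 arrays, was compared with the levels of the iMEF lines. For the 219 genes that were higher in fl/fl iMEFs it was nearer to the fl/fl level for 138 (63%), and for the 364 that were lower it was nearer to the fl/fl level for 162 (44.5%). Over all genes it was nearer to the fl/fl level for 66.8%. For 111 of the 219 and 141 of the 364 the primary level was over both iMEF lines, as for Mest, with 11.50 in fl/fl and 11.61 in wt/wt primary MEFs, and Thy1, with 12.62 and 12.57 in the same order. Pax8 was the converse, at 6.67 in fl/fl and 6.76 in wt/wt primary MEFs, near the fl/fl iMEFs.

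Lasting genes were spread over the chromosomes. The median difference ran from -0.09 on chromosome 8 to 0.07 on chromosome 13, and the share of lasting genes was between 2.56% on chromosome 19 and 5.91% on chromosome 13. This leaves out chromosome Y, with 1 gene tested. The direction was uneven, with 1 higher and 11 lower on X, 6 and 27 on chromosome 8, and 18 and 11 on chromosome 13. The share of tested genes with a difference above 0 ran from 30.9% on chromosome 7 to 58.7% on chromosome 13. The cause was not tested. Along the genome, the window of 51 neighbouring genes with the lowest median was that from Slc25a47 to Klc1 on chromosome 12 (-0.21), which holds the Dlk1-Dio3 region and 9 lasting genes, all lower. The highest was that from Birc6 to Epas1 on chromosome 17 (0.24), with 3 lasting genes that were higher and 1 that was lower. Ubtf lies on chromosome 11, and of the 10 genes measured on each side of it none was lasting, with mean differences between -0.23 (Nags and Tmem101) and 0.41 (Gpatch8).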

How the data were processed

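The authors deposited log2 expression values, made from the array scans with RMA-sketch in Affymetrix Power Tools 1.14.4, per the labels and the study's methods. The methods name Mouse Gene 2.0 ST arrays and the platform annotation is that of the 1.0 ST array. The number of arrays limits the precision. All 20 columns were mapped to a sample by name, with 0 left over.

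Of 35556 probe sets, 21789 had 1 gene symbol, 1621 had several and 12146 were not listed. A gene was represented by its probe set with the highest mean (19938 genes) and kept when it was over the 40th percentile of the array on at least 2 iMEF arrays (14765 genes; 14616 in primary MEFs by their own arrays). Differences were fitted with limma 3.58.1 in R 4.3.3 with time as a block and genotype as a term (residual df 4, prior df 5.08 in iMEFs and 3.29 in MEFs), and p-values were adjusted by Benjamini-Hochberg over all genes kept. The median SE was 0.119 in iMEFs and 0.0985 in MEFs. Each adjusted p in the text comes from limma. Errors are standard errors of the fit over 5 pairs of arrays.

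The times in the labels pair the arrays. The deviations of same-time arrays from the line means correlated at 0.50, -0.05, 0.30, 0.21 and 0.62 from 0 to 96 h. Genes were named by rule: the 15 highest and 15 lowest by their smallest difference, up to 4 per list and direction, 6 microRNA precursors and 4 snoRNAs. Exceptions are stated where they stand. The members and lists were chosen with earlier results of these data known. The scripts were tested on simulated data. Alternatives were another scaling, filter, probe set rule or variance model, the fit without the block, all 20 arrays in 1 fit, early or late times alone, and leaving out each time. Sequences were taken from RefSeq, and figures were drawn with matplotlib 3.10.9 in Python 3.11.15.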

Additional observations from a re-analysis of the deposited data

Results flagged for a closer look

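For the named genes, 244 groups of 5 arrays were searched for 1 value far from the others, and 11 were found; chance flags about 1 in 20 groups. At 96 h these were Acta1 in wt/wt iMEFs (10.74, nearest 9.87), Cxcl5 in fl/fl (7.52, nearest 8.04) and in wt/wt iMEFs (6.21, nearest 6.91), Pax8 in fl/fl (7.49, nearest 7.02) and Ndn in wt/wt iMEFs (9.24, nearest 9.96). At 48 h they were Mir487b in fl/fl iMEFs (5.89, nearest 6.22), and Efnb2 (8.72, nearest 8.54) and Tbx20 (7.74, nearest 7.03) in wt/wt iMEFs. At 24 h they were Slit2 in fl/fl (11.04, nearest 10.11) and Aspn in wt/wt iMEFs (4.19, nearest 5.04), and at 0 h Sbspon in wt/wt iMEFs (8.32, nearest 8.09).

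For 15 named genes the difference had 1 sign at all 5 times in primary MEFs, opposite to that in iMEFs. The difference between the kinds of cells was not tested. Of genes higher in fl/fl iMEFs, the mean difference in primary MEFs was -0.99 for Sbspon, -0.85 for Msx1, -0.56 for Kitl, -0.50 for Cdh13, -0.47 for Cxcl14, -0.46 for Irs1, -0.41 for Psca, -0.30 for Mfap5 and -0.25 for Tbx4. Of genes lower in fl/fl iMEFs, it was 1.31 for Trim30a, 1.13 for H2-Q4, 0.52 for H2-M3, 0.40 for Hoxa2, 0.34 for Cdh3 and 0.10 for Fbln2.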

How the results depend on the processing

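With another scaling, filter, probe set rule or variance model, 186 to 242 genes were called higher in fl/fl iMEFs and 309 to 426 lower, against 219 and 364. Without the time block, the pairing of same-time arrays, 157 were higher and 283 lower in iMEFs, and 95 higher and 76 lower in primary MEFs, against 120 and 117. All 20 arrays in 1 fit gave 377 higher and 542 lower iMEF genes. The 0 and 24 h arrays alone gave 610 and 243, and the later ones 192 and 336. Leaving out 1 time gave 78 (without 0 h) to 214 (without 24 h) higher and 182 (without 0 h) to 397 (without 24 h) lower genes in iMEFs. In primary MEFs it gave 10 (without 72 h) to 971 (without 96 h) higher and 5 (without 72 h) to 495 (without 96 h) lower genes, so that the primary counts turn on single times. The cause was not tested.

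Of 122 named genes, 0 changed direction under the alternatives run on them, of which the filter at the 60th percentile covered 104. The named genes were chosen for the same sign at all times. Fits on fewer times or without the block average differences of that sign and could not reverse it. For those fits the 0 is no test of the direction. Of the 122, 55 kept their call under every alternative run on them and 66 whichever time was left out. Calls were lost for 24 without the block, 42 with 0 and 24 h only and 33 with the later times only. Leaving out a time ended 44, 10, 21, 31 and 45 calls, for 0, 24, 48, 72 and 96 h, in that order. Centring moved the median of all genes by 0.043. Levels near the 40th percentile of the array cannot be told from background.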
